A study of Mus musculus with 4 samples.

Results

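The Kruppel-like factors were represented by 10 genes, Klf2, Klf3, Klf4, Klf5, Klf6, Klf7, Klf9, Klf10, Klf12 and Klf13, among 18193 genes measured. They were found through the platform annotation, which assigned 38 of 45037 probe sets to one of them. Each gene is described by its probe set of highest mean log2 intensity over the 4 arrays, called its main probe set, and every other probe set is reported beside it. The rule for the main probe set used the level and no difference between groups. The genes themselves were listed with earlier results of these data known.

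Kruppel-like factors are transcription factors that bind CACCC and GC-rich boxes through a conserved C-terminal block of zinc fingers, while their remaining parts recruit either activators or repressors. Family members steer blood cells in different ways. Klf2 keeps lymphocytes quiescent, Klf4 acts in monocyte differentiation, and Klf1, the founding member, drives red cell genes. Several members, such as Klf2, Klf4, Klf6 and Klf10, are induced within a short time by stress, shear or growth factor signals.

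The RNA came from LSK cells, the bone marrow fraction without lineage antigens but with cKit and Sca1, in which stem cells and multipotent progenitors are found. WT mice were Ncstn flox/flox, and Ncstn KO mice were Ncstn flox/flox Mx1-cre+, so that the floxed alleles were shared and the cre transgene was not; the labels call the mice littermates but tie no array to a litter. Mx1-cre is a recombinase under an interferon-responsive promoter, and deletion of Ncstn removes nicastrin, a subunit of gamma-secretase, the protease that releases the active part of Notch receptors. Mice of both groups were given polyIC, an interferon inducer, in 3 injections of 20 mcg per g of body weight from 14 days of age, and were analysed 4 weeks later at 6 weeks of age. Any effect of the transgene itself cannot be told apart from that of the deletion. Each group held 2 arrays from separate mice: WT replicate 1 and Ncstn KO replicate 2 were male, WT replicate 2 and Ncstn KO replicate 1 female. Because the amplified RNA of a whole sorted fraction was hybridized, fewer cells of a type and less RNA per cell cannot be told apart.

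Median probe set intensities were 71.6 to 79.2, and Pearson's r across genes, which are not independent replicates, was 0.989 to 0.995 between arrays. Ncstn had log2 intensities of 9.05 and 8.98 in WT and 7.58 and 7.91 in Ncstn KO, in the direction of the labels (limma adjusted p = 0.257). Of the markers of the sort, Kit was at 11.57 to 11.94, while Ly6a, the gene of Sca1, was not analysed here. Cd34, which is not part of the definition of the sort given above, was at 12.77 to 12.81. Among lineage antigens, Cd3e was at 4.55 to 5.14 and Itgam at 4.05 to 5.77, below the median of all genes, 8.04. Cd8a was at 5.21 to 7.07, Cd4 at 7.89 to 8.97 and Ptprc, the CD45 gene used in nearly all blood cells, whose B220 form marks B cells, at 11.57 to 12.11. The hybridization controls, bacterial and phage RNAs added to every sample, were brighter in Ncstn KO by 0.195 (log2). Scaling the arrays to them moved the median difference of all genes from 0.02 to -0.17.

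Main probe sets of 8 of the 10 genes lay above that median level, and those of Klf5 and Klf12 lay below it. Probe sets differ in how strongly they bind their target, so levels are compared between arrays for one gene and not between genes. In the comparison of Ncstn KO with WT, which asked what loss of nicastrin does to gene expression in these cells, 0 of 10 members passed an adjusted p of 0.05 in limma. Neither did any of the 18193 genes (0%), and 4 members had an unadjusted p under 0.05, namely Klf9, Klf7, Klf13 and Klf5, against 6.8% of all genes. In 7 members both Ncstn KO arrays lay on one side of both WT arrays, 5 above and 2 below, where 34% of all genes were separate in this way, 21.3% above and 12.8% below. An exact two-sided permutation test of 2 arrays against 2 cannot give a p below 0.333, so separation alone is a description. The median difference of the members was 0.26, and that of all genes 0.02. Without Ncstn KO replicate 2 the members' median was -0.08, and without WT replicate 2 it was 0.01. A fold change of at least 1.5 with separate arrays was seen in Klf5, Klf7 and Klf9 (higher) and Klf12 (lower), beside 3.83% of all genes on the higher and 1.55% on the lower side.

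**Figure D1:**
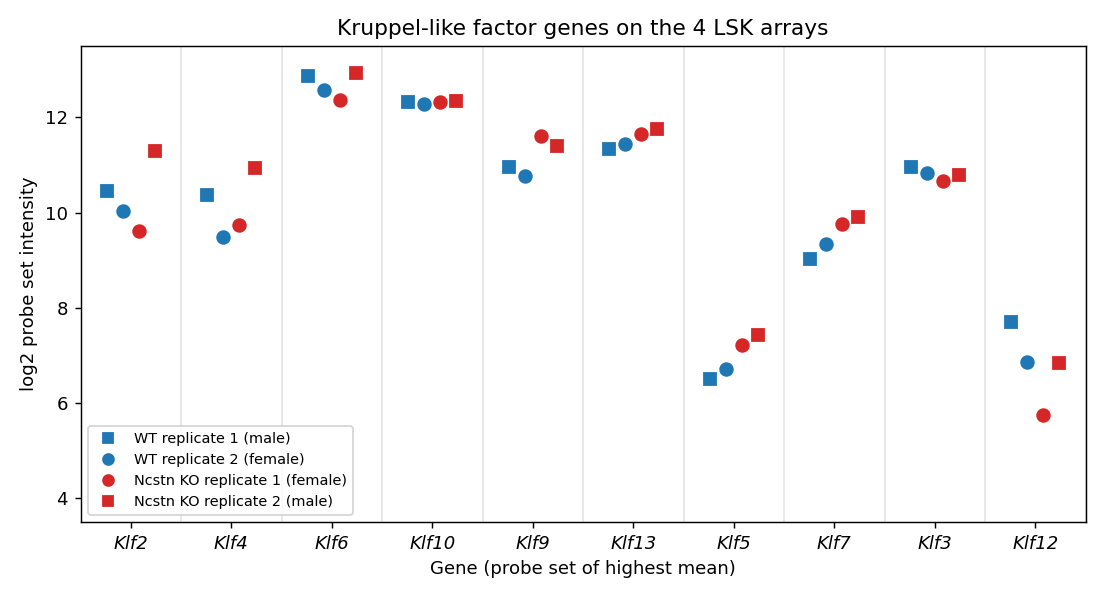
Log2 intensity of the main probe set of each gene on the 4 arrays, with WT in blue, Ncstn KO in red, males as squares and females as circles. Klf9, Klf13, Klf5 and Klf7 have both red points above both blue points, while Klf2, Klf4 and Klf6 have both squares above both circles.

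Klf9, a repressor of the basic-transcription-element-binding kind that glucocorticoids and thyroid hormone induce, had the smallest p of the family. Its main probe set read 10.96 and 10.78 in WT and 11.62 and 11.40 in Ncstn KO. Both Ncstn KO arrays were above both WT arrays, by more than the distance between arrays of one group. The means were 10.87 ± 0.13 (SD, n = 2) in WT and 11.51 ± 0.15 (SD, n = 2) in Ncstn KO. The difference of 0.64 (SE 0.13), or 1.56-fold, did not pass (limma adjusted p = 0.34), and by p it stood at place 136 of 18193 genes. It was 0.44 between the males and 0.84 between the females, and 0.53 to 0.75 when any array was left out.

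The other Klf9 probe sets were higher in Ncstn KO as well. All 7 had a mean difference above 0, from 0.30 to 0.78, and in 6 of them the arrays were separate, where 18.5% of all probe sets had both Ncstn KO arrays above both WT arrays. These probe sets read one transcript in the same RNA and are not replicates of each other. Over the 38 probe sets of the family, 15 were separate above and 7 below WT, where 32.5% of all probe sets were separate. An unadjusted p under 0.05 was found for 10 of the 38 and for 5.14% of all probe sets. The brightest Klf9 probe set after the main one read 11.02 and 10.79 in WT and 11.40 and 11.32 in Ncstn KO. A dim one, with a mean of 5.36, had Ncstn KO replicate 2 and WT replicate 2 at the same 5.30. Probe sets with means of 11.19 to 4.02 thus gave one direction, and 0 of them passed when all 45037 probe sets were adjusted together (lowest limma adjusted p = 0.751). Klf9 kept a difference of at least 0.44 in each alternative run, and this value was reached within the male pair and under scaling to the hybridization controls.

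Genes that glucocorticoids induce were set beside Klf9 as a list. Of 10 measured members 0 passed, 7 lay above and 3 below WT, and the median difference was 0.16, or -0.04 under scaling to the hybridization controls. The smallest p belonged to Ddit4, an inhibitor of mTORC1, Tsc22d3, the leucine zipper protein GILZ, and Cdkn1c, a cyclin-dependent kinase inhibitor. Tsc22d3 read 10.46 and 9.98 in WT and 11.21 and 11.37 in Ncstn KO, a difference of 1.07 (SE 0.18; limma adjusted p = 0.265). Ddit4 read 12.23 and 12.39 in WT and 12.81 and 12.79 in Ncstn KO, a difference of 0.49 (SE 0.08; limma adjusted p = 0.257). In both genes the Ncstn KO arrays were above the WT arrays with a gap wider than that within a group. Cdkn1c had a difference of 0.58 (SE 0.28). Fkbp5, a co-chaperone of the glucocorticoid receptor, had 0.20 (SE 0.21) with overlapping arrays, and Nr3c1, the receptor gene itself, 0.01 (SE 0.13).

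The RefSeq promoter window of Klf9 is printed because this gene had the smallest p of the family. It covers the 250 bases before the annotated start, chr19:23140976-23141225 on the plus strand of GRCm38.p6, 5′ to 3′, and capitals mark the CACCC box, the letters that members of the family bind.
Klf9: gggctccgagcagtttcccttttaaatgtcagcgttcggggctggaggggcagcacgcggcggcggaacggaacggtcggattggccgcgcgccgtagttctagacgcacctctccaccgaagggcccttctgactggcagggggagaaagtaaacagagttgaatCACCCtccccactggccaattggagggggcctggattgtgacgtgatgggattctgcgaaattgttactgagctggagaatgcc
The single CACCC match lies 84 to 80 bases before the start. On either strand CACCC occurred in the windows of 6 of the 8 members that had one and in 52.0% of all 32851 windows of this length, so its presence is common. A match describes letters and not a bound site.

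Klf13, a close relative of Klf9 first described as an activator of the chemokine gene Ccl5 in T cells, had a smaller difference. It read 11.35 and 11.43 in WT and 11.65 and 11.76 in Ncstn KO. The groups did not overlap, and the difference was 0.32 (SE 0.10), or 1.25-fold (limma adjusted p = 0.602). It was 0.42 between males and 0.22 between females. Under scaling to the hybridization controls the difference was 0.12 and the arrays overlapped. A second probe set agreed in direction at 0.30 with separate arrays, and the third, with a mean of 6.23, had -0.02 with overlapping arrays.

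Klf7, an activator that limits the growth of stem and progenitor cells when it is overproduced, read 9.03 and 9.34 in WT and 9.76 and 9.90 in Ncstn KO. Both Ncstn KO arrays were above both WT arrays. The difference was 0.64 (SE 0.18), or 1.56-fold, and did not pass (limma adjusted p = 0.548). It was 0.87 between the males and 0.41 between the females. Of its 4 probe sets 3 had differences between 0.62 and 0.64 with separate arrays. The remaining one, with a mean of 6.40, read 6.07 and 6.57 in WT and 7.0 and 5.95 in Ncstn KO and overlapped.

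Klf5, an activator of proliferation in epithelium that also takes part in progenitor adhesion and homing, read 6.51 and 6.72 in WT and 7.22 and 7.44 in Ncstn KO. The arrays were separate on this probe set, with a difference of 0.72 (SE 0.25), or 1.64-fold (limma adjusted p = 0.64). Its probe sets disagreed. A dimmer one read 5.09 and 4.75 in WT and 4.52 and 4.26 in Ncstn KO, which is separate in the opposite direction (-0.53, SE 0.25), and the dimmest, separate above WT, had 0.33 (SE 0.20). With the mean of all 3 probe sets the difference of Klf5 was 0.17, so its size depended on the probe set.

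**Figure D2:**
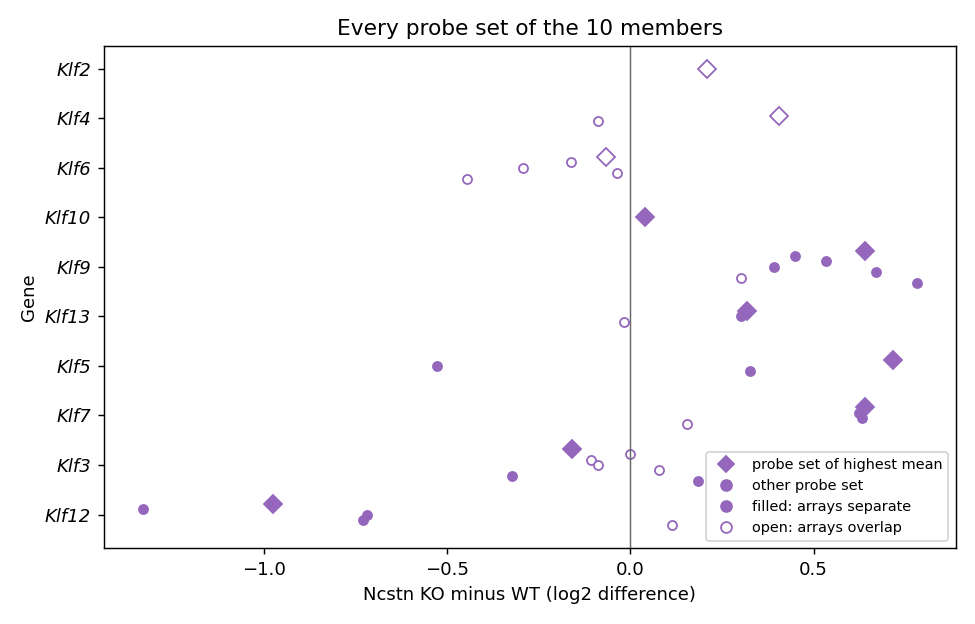
Difference between Ncstn KO and WT on the log2 scale (horizontal axis) for all 38 probe sets, by gene (vertical axis); diamonds are main probe sets, and filled symbols mark probe sets whose arrays were separate. All 7 Klf9 probe sets lie to the right of 0, 4 of 5 Klf12 probe sets lie to the left, and those of Klf5 lie on both sides.

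Klf3 and Klf12, which are repressors that bind the corepressor CtBP, were the members with separate arrays below WT. Klf12 read 7.70 and 6.86 in WT and 5.75 and 6.85 in Ncstn KO. The separation rested on WT replicate 2 and Ncstn KO replicate 2, whose values were nearly equal, while Ncstn KO replicate 1 was far below the other arrays. The difference was -0.98 (SE 0.46), a 1.97-fold lower mean, with a limma adjusted p of 0.797, and -0.43 without Ncstn KO replicate 1. Klf12 had the widest range of the members over the arrays, 1.95.

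Dimmer Klf12 probe sets gave clearer separation. A second one read 7.47 and 6.82 in WT and 5.64 and 5.99 in Ncstn KO, a difference of -1.33 (SE 0.34). A further pair, with means of 5.88 and 3.61, had -0.72 and -0.73, both with separate arrays. The dimmest, with a mean of 3.31, had 0.11 and overlapped. In all, 4 of 5 Klf12 probe sets were separate with Ncstn KO below WT, where 14% of all probe sets were, and 0 passed over all probe sets (lowest limma adjusted p = 0.833). Signal over background could not be assessed for the dim ones.

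**Figure D3:**
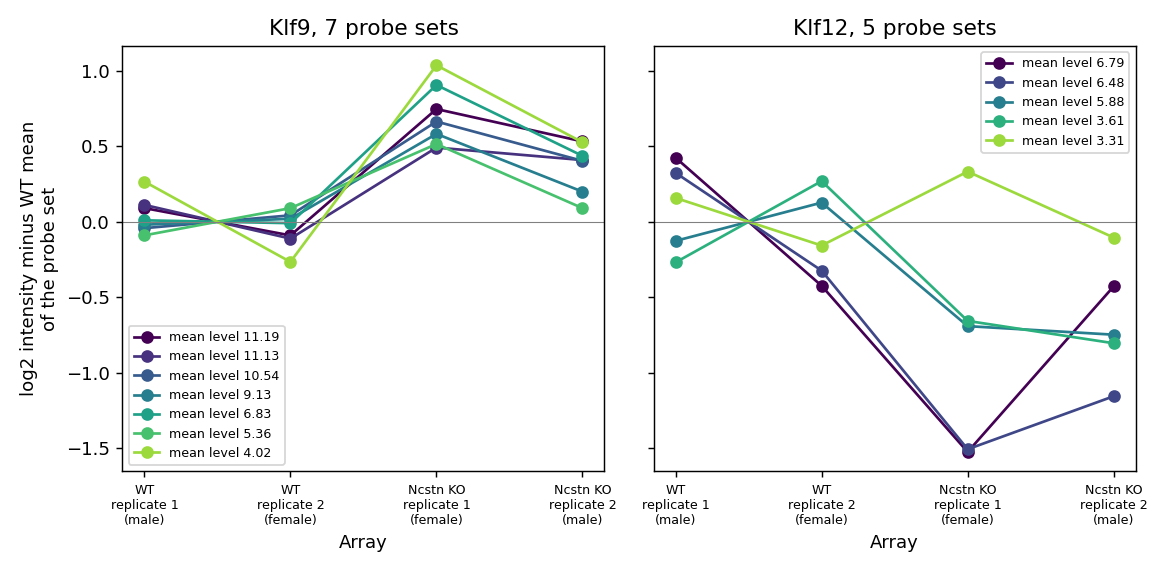
Log2 intensity minus the WT mean of each probe set (vertical axis) on the 4 arrays for Klf9 (left) and Klf12 (right); each line joins the values of one probe set, named by its mean level, and the order of arrays has no meaning. Klf9 probe sets are above 0 on both Ncstn KO arrays, and the brightest pair of Klf12 probe sets is lowest on Ncstn KO replicate 1.

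Klf3, which restrains Klf1 targets and galectin-3, read 10.97 and 10.82 in WT and 10.67 and 10.80 in Ncstn KO. The arrays were separate by a small margin, with a difference of -0.16 (SE 0.13; limma adjusted p = 0.937). Its 7 probe sets had differences from -0.32 to 0.18. Of the 7, 2 were separate below WT and 1 above, where 14% and 18.5% of all probe sets were. Among 7 measured targets of Klf3 and Klf1, 0 passed, 4 lay above and 3 below WT, and the median was 0.02 (-0.18 under scaling to the hybridization controls, -0.06 when WT replicate 1 was left out and -0.12 when Ncstn KO replicate 1 was). Lgals3, the galectin-3 gene, read 8.79 and 8.87 in WT and 10.28 and 10.48 in Ncstn KO, a difference of 1.55 (SE 0.17; limma adjusted p = 0.161). Any part of Klf3 in the values of Lgals3 was not tested. Alas2, the erythroid enzyme of heme synthesis, had -1.30 (SE 0.36), and Tfrc, the transferrin receptor gene, 0.25 (SE 0.12). Of 13 measured corepressor and coactivator genes 0 passed, with a median of 0.01, and -0.18 under the control scaling and -0.0090 without WT replicate 2. Those of smallest p were Hdac2 (-0.12, SE 0.08), Wwp1 (0.24, SE 0.18) and Fbxo32 (0.31, SE 0.25), a deacetylase and 2 ubiquitin ligase genes. Ctbp1 had -0.03 (SE 0.06) and Ctbp2 0.00 (SE 0.15).

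Klf2, Klf4 and Klf6 did not separate by genotype but by sex. Klf2 read 10.46 and 10.03 in WT and 9.61 and 11.30 in Ncstn KO, so the Ncstn KO arrays held both the lowest and the highest value. The genotype difference was 0.21 (SE 0.51; limma adjusted p = 0.993), with 0.84 between the males and -0.42 between the females. Klf4 read 10.38 and 9.49 in WT and 9.75 and 10.93 in Ncstn KO, a difference of 0.40 (SE 0.44; limma adjusted p = 0.972). Klf6, a factor of injury responses and macrophage activation, read 12.86 and 12.57 in WT and 12.37 and 12.93 in Ncstn KO, a difference of -0.07 (SE 0.19; limma adjusted p = 0.997). In all 3 genes the genotype difference changed sign when single arrays were left out. It ran from -0.63 to 1.05 for Klf2, with the lowest value without Ncstn KO replicate 2 and the highest without Ncstn KO replicate 1. The matching ranges were -0.19 to 0.99 for Klf4 and -0.35 to 0.22 for Klf6.

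In a fit with genotype and sex as terms, females were lower than males by 1.06 (SE 0.32) in Klf2, or 2.08-fold, by 1.03 (SE 0.14) in Klf4, or 2.04-fold, and by 0.43 (SE 0.08) in Klf6, or 1.35-fold. Both males were above both females in each of the 3 genes, a pattern found in 11.5% of all genes, and 40.5% of genes were separate by sex in one direction or the other. Of the 10 members 0 were separate with females above, where 29% of all genes were. None of the 10 passed (limma adjusted p = 0.574 for each of these 3, unadjusted p = 0.0239, 0.00115 and 0.00447), and 4 of 18193 genes did (0.022%). With Klf12, 4 members had an unadjusted p under 0.05, beside 8.58% of all genes. With every array shifted to a common median, Klf4 passed (difference -0.94, limma adjusted p = 0.0332), and 58 of all genes passed. The probe sets agreed, with males above females in 2 of 2 for Klf4 and 5 of 5 for Klf6, at differences of -1.09 to -0.43, where 14.7% of all probe sets were separate in that direction. Klf12 was also lower in females by 0.97 (SE 0.22), with overlapping arrays, and its difference was -0.18 with the mean of all its probe sets. The labels name the sex of each mouse, but with 2 mice of each sex a property of single mice or of their preparation cannot be told apart from sex.

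**Figure D4:**
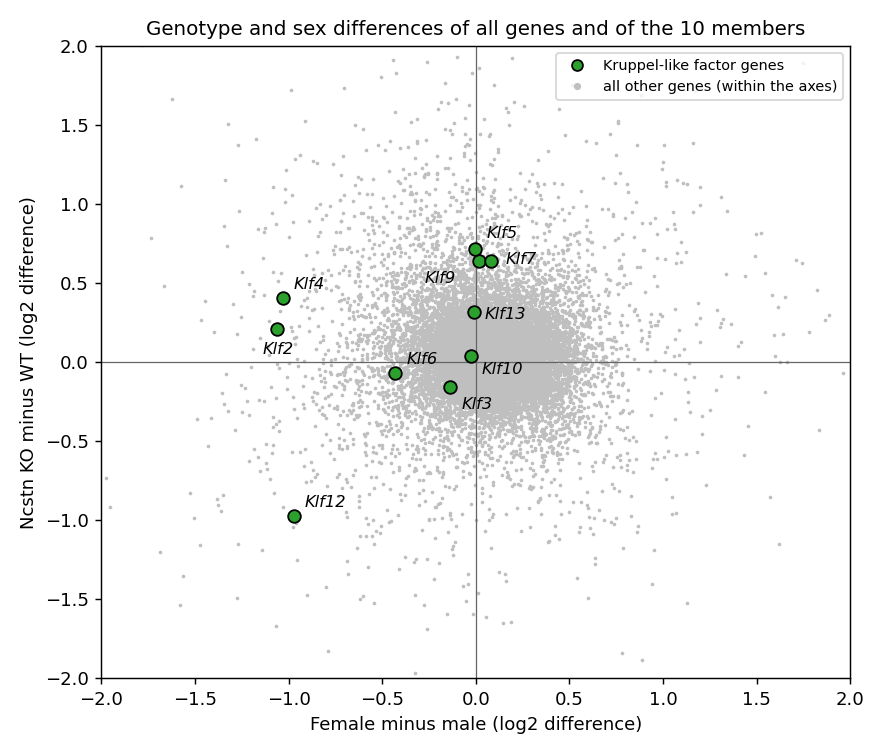
Difference between Ncstn KO and WT (vertical axis) against difference between females and males (horizontal axis), both on the log2 scale, for all genes within the axes (grey) and the 10 members (green). Klf5, Klf7, Klf9 and Klf13 lie above 0 on the vertical axis and near 0 on the horizontal axis, Klf2 and Klf4 lie near -1 on the horizontal axis, and Klf12 is low on both.

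Immediate-early genes, transcribed within minutes of a stimulus, moved with Klf2, Klf4 and Klf6 over the arrays. Of 22 measured, 21 were lower in females than in males, and 15 were separate in that direction, where 11.5% of all genes were. Their median difference was -0.46, against 0.07 for all genes. Their mean log2 intensity was 11.13 and 10.92 in WT and 10.39 and 11.26 in Ncstn KO, which orders the arrays as Klf2 and Klf6 do, with Ncstn KO replicate 2 highest and Ncstn KO replicate 1 lowest. Fosb, a subunit of AP-1, read 10.80 and 9.50 in WT and 9.60 and 11.23 in Ncstn KO, and Jun read 12.64 and 12.38 in WT and 11.62 and 12.78 in Ncstn KO. Both had male arrays above female arrays. By genotype 0 of the 22 passed, 7 lay above and 15 below WT, with a median of -0.06 that was 0.27 without Ncstn KO replicate 1, -0.42 without Ncstn KO replicate 2 and -0.25 under the control scaling. The smallest p belonged to Nr4a2 (-1.24, SE 0.23), Egr3 (-0.70, SE 0.26) and Nfkbia (0.19, SE 0.09). The part of such a response in the values of Klf2, Klf4 and Klf6 was not tested.

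**Figure D5:**
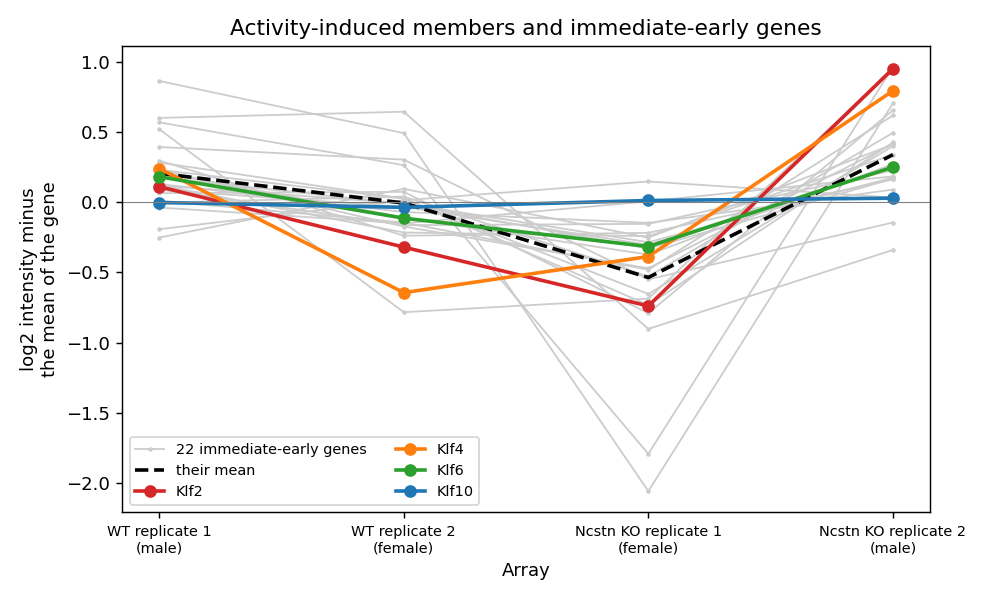
Log2 intensity minus the mean of each gene (vertical axis) on the 4 arrays for Klf2, Klf4, Klf6 and Klf10 (colours), the 22 immediate-early genes (grey) and their mean (dashed); lines join values of one gene. Klf2, Klf4 and Klf6 are higher on both male arrays than on both female arrays, and Klf10 stays within 0.07 over the arrays.

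Klf10, induced by transforming growth factor beta and a repressor of Smad7, was the least variable member. It read 12.32 and 12.28 in WT and 12.33 and 12.35 in Ncstn KO. The arrays were separate, but over a range of 0.07, and the difference of 0.04 (SE 0.07; limma adjusted p = 0.989) was -0.16 under scaling to the hybridization controls. Of 12 measured genes of the transforming growth factor beta and Smad pathway 0 passed, 4 lay above and 8 below WT, with a median of -0.04. It was 0.03 without Ncstn KO replicate 1 and -0.24 under the control scaling. Tgfbr2, a receptor, had 0.31 (SE 0.16), Smad6, an inhibitor, 0.42 (SE 0.28), and Smad3, a signal transducer, -0.14 (SE 0.11). Smad7 had 0.14 (SE 0.20).

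Promoter windows of Klf2, Klf4 and Klf6 are printed because these genes were high and low on the same arrays. Each holds the 250 bases before the RefSeq start in GRCm38.p6, 5′ to 3′. Klf2 is at chr8:72318812-72319061 on the plus strand, Klf4 at chr4:55532476-55532725 on the minus strand and Klf6 at chr13:5861239-5861488 on the plus strand. Capitals mark matches on either strand to TATAA and to the MEF2 box, the element through which the kinase Mapk7 and Mef2 factors are known to induce Klf2.
Klf2: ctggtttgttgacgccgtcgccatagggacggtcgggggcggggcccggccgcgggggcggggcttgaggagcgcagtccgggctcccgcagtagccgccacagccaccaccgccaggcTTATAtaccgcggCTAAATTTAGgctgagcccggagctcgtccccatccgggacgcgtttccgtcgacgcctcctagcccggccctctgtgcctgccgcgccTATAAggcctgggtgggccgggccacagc
Klf4: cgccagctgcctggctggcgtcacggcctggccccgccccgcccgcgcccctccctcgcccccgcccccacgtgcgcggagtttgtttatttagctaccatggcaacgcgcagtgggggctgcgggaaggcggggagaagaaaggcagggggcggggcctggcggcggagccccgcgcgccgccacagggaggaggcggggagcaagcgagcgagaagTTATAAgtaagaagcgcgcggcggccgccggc
Klf6: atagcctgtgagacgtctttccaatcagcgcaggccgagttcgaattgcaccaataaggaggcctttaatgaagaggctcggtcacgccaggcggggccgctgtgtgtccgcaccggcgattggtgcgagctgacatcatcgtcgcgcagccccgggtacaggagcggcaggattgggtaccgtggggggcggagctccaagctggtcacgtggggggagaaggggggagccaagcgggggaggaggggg
The Klf2 window held 1 MEF2 box, 118 to 109 bases before the start, and 2 TATAA matches, 131 to 127 and 29 to 25 bases before it. In Klf4 TATAA lay 31 to 27 bases before the start, overlapping a match on the other strand, and Klf6 had neither motif in its window. A MEF2 box was found in 2.92% and TATAA in 22.8% of all windows. The CArG box, bound by serum response factor, was in none of the 8 members' windows and in 1.47% of all windows, which says only that these letters are not in this stretch. All 3 windows held the GC box GGGCGG, 2 times in Klf2, 4 times in Klf4 and 1 time in Klf6, and 32.7% of all windows held it.

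Genes upstream of Klf2 were measured as a list of kinases, Mef2 factors and the cerebral cavernous malformation proteins that restrain them. Of 12 measured 0 passed, 8 lay above and 4 below WT, with a median of 0.07 (-0.0081 without Ncstn KO replicate 2, -0.13 under the control scaling). Mef2c, abundant in early lymphoid and myeloid progenitors, read 12.22 and 12.33 in WT and 12.16 and 12.00 in Ncstn KO, a difference of -0.20 (SE 0.10). Map3k3 had 0.13 (SE 0.11) and Map2k5, the kinase of Mapk7, 0.16 (SE 0.14). Among 9 measured trafficking genes linked to Klf2, 0 passed and 3 lay above WT, with a median of -0.09, or -0.28 under the control scaling. That median was 0.05 without WT replicate 1, 0.08 without Ncstn KO replicate 1 and 0.096 without Ncstn KO replicate 2, so its sign depended on single arrays. Itgb7, an integrin subunit, read 9.95 and 10.27 in WT and 10.88 and 10.97 in Ncstn KO, a difference of 0.82 (SE 0.16; limma adjusted p = 0.296). Cd69, which retains lymphocytes in tissue, had -0.73 (SE 0.29), and Nos3 had 0.60 (SE 0.31). S1pr1, the egress receptor that Klf2 induces in lymphocytes, read 7.37 and 6.71 in WT and 6.32 and 7.38 in Ncstn KO. Like Klf2, it was higher on both male arrays, by 0.86 in the mean (female minus male -0.86, SE 0.24). It was named after its values were seen. Of the 9 trafficking genes, 3 were lower in females than in males, and the median female minus male was 0.12. With separate arrays, 2 had females below and 2 above, where 11.5% and 29% of all genes did. Of 8 cell cycle genes linked to Klf4, 0 passed and 4 lay above WT, with a median of -0.03 that was 0.04 without WT replicate 2 and -0.23 under the control scaling. Odc1 had -0.29 (SE 0.10), Cdkn1b -0.21 (SE 0.10) and Cdkn1c 0.58 (SE 0.28), and Cdkn1a, a known Klf4 target, 0.22 (SE 0.36).

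Other Kruppel-like and Sp factors showed no call either. Of 13 measured 0 passed, 9 lay above and 4 below WT, with a median difference of 0.08 that was -0.12 under scaling to the hybridization controls and -0.08 without Ncstn KO replicate 1. The smallest p belonged to Sp7, Sp8 and Sp5, all at levels far under the median of all genes. Klf1 read 8.35 and 8.55 in WT and 9.44 and 7.79 in Ncstn KO, with Ncstn KO replicate 1 the highest of the 4. It was higher in both females, by 0.92 (SE 0.39), the opposite of Klf2 and Klf4, and was named after its values were seen. Of the 13 factors, 4 were lower in females than in males, and the median female minus male was 0.25. With separate arrays, 5 of the 13 had females above and 2 below, where 29% and 11.5% of all genes did.

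Marker genes of other cell types are given beside Klf5, Klf7, Klf9 and Klf13, and no gene of these lists passed in the main fit. Of 14 measured monocyte and neutrophil markers 13 lay above WT, with a median of 0.82, and 0 passed; under scaling to the hybridization controls 9 of them lay above WT and the median was 0.63. Their summed intensity was 52700 and 44220 in WT and 51438 and 63526 in Ncstn KO, which overlapped, while their mean log2 intensity, less set by the brightest genes, was 9.85 and 9.62 in WT and 10.35 and 10.54 in Ncstn KO, which was separate. Without WT replicate 2 or without Ncstn KO replicate 2, 8 of the 14 lay above WT, with medians of 0.73 and 0.70. F13a1 had a difference of 1.64 (SE 0.25), Hp of 1.19 (SE 0.19) and Ccr2 of 1.498 (SE 0.24). Erythroid and megakaryocyte markers, 9 measured, had 7 above and 2 below WT, with a median of 0.56. The 2 below WT, both with separate arrays, were the erythroid genes Alas2 and Slc4a1. Slc4a1 read 9.94 and 8.96 in WT and 7.92 and 8.89 in Ncstn KO. Summed intensities of the 9 markers were 3396 and 3732 in WT and 5016 and 4082 in Ncstn KO, which were separate. Their mean log2 intensity was 8.03 and 8.21 in WT and 8.47 and 8.18 in Ncstn KO, which overlapped, and their median difference was -0.16 without Ncstn KO replicate 1 and 0.18 without WT replicate 1. Mature T and B cell markers, 9 measured, had 4 above WT and a median of -0.10, which was 0.08 without WT replicate 2 and -0.29 under the control scaling. They summed to 8734 and 8310 in WT and 6616 and 8443 in Ncstn KO, which overlapped. Their mean log2 intensity was 7.29 and 7.65 in WT and 7.20 and 7.25 in Ncstn KO, separate below WT by a small margin. Endothelial and stromal markers, 10 measured, had 5 above WT and a median of -0.01, which was 0.08 without Ncstn KO replicate 2 and -0.21 both without Ncstn KO replicate 1 and under the control scaling. They summed to 3991 and 3984 in WT and 3478 and 4054 in Ncstn KO, which overlapped. Their mean log2 intensity was 7.11 and 7.08 in WT and 6.58 and 6.88 in Ncstn KO, separate below WT. Array values have a background, so no marker reads 0; the part of these cells in the values of the members was not tested.

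The genes most like 2 of the members over the 4 arrays were found by the root mean square difference of log2 values centred on each gene's mean. For Klf12, the member of widest range, the nearest were Zdhhc14 (0.07), Slc4a1 (0.07), Napb (0.12), Phlda1 (0.14) and Angptl1 (0.14), and 11 genes lay within 0.2. For Klf9, the member of smallest p, the nearest were Tktl1 (0.01), Ezhip (0.02), Zfp711 (0.03), Zg16 (0.03) and Hexim2 (0.03), and 921 genes lay within 0.2, so many genes share its pattern over only 4 arrays. The other members nearest to Klf9 were Klf5 (0.21), Klf7 (0.22) and Klf13 (0.22), and those nearest to Klf12 were Klf6 (0.53) and Klf3 (0.59).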

How the data were processed

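The values analysed were probe set intensities on a linear scale, as deposited by the authors. The submitters' processing notes name RMA, a summary of the probes of a set after normalization over arrays; its software and background step are not given in these sources. Per the labels' protocols, 5 ng of total RNA was amplified and biotin-labelled, which can add noise for rare transcripts. Values ran from 3.32 to 23642.6, so log2 was taken before testing. Of 45101 probe sets 64 controls were left out; 34945 of the rest named 1 gene, 932 several and 9160 none, by an annotation of 2016, and 34741 matched RefSeq genes of GRCm38.p6. Each of 18193 genes was its brightest probe set. Each gene, and separately each probe set, was fitted with limma (version 3.58.1, R 4.3.3) by lmFit and eBayes, letting the prior variance follow the level. Tests were two-sided, and p-values were adjusted by Benjamini-Hochberg over all genes or all probe sets. Terms were genotype, or genotype and sex, with n = 2 per group. The number of arrays limits precision. The fit was tested on simulated data. Promoters came from RefSeq (GRCm38.p6).

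Members, gene lists, alternatives and the naming rule were all set up with earlier results of these data known. The rule named all members, Ncstn and the markers listed for LSK cells, Cd34 among them. It also named up to 3 genes of smallest p per list, and the 5 nearest genes of 2 members. Genes outside it (S1pr1, Klf1, Cdkn1a, Smad7, Fkbp5, Nr3c1, Ctbp1, Ctbp2, Fosb, Jun, Nr4a1, Cxcl12, Ltf and Camp) were chosen after their values were seen.

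Same-numbered arrays did not deviate together (correlation of the replicate differences of WT and Ncstn KO -0.24 across genes), and they differ in sex. Alternatives covered the probe set per gene, array scaling, a level filter, a pseudocount of 16, the variance trend, sex or replicate number as a term, and each array left out. Figures were drawn with matplotlib 3.10.9.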

Additional observations from a re-analysis of the deposited data

Results flagged for a closer look

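The difference between Ncstn KO and WT in Klf2 had opposite signs in the 2 sexes, 0.84 (log2) in the male pair and -0.42 in the female pair. In Klf6 it was 0.068 in the male pair and -0.20 in the female pair. With 1 array of each genotype and sex, the difference between the sexes was not tested.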

How the results depend on the processing

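No Kruppel-like factor passed in the comparison of Ncstn KO with WT under any alternative run, and the lowest limma adjusted p of Klf9 among them was 0.146. Klf3, Klf5, Klf7, Klf9, Klf12 and Klf13 kept their direction in each. Scaling to the hybridization controls gave Klf10 a difference of -0.16 and a members' median of 0.069. Leaving out WT replicate 1 or Ncstn KO replicate 1 turned Klf6 to 0.08 and 0.22. Without WT replicate 2 the differences were -0.0049 for Klf2 and -0.04 for Klf4, and without Ncstn KO replicate 2 they were -0.63 and -0.19. Within the female pair Klf2 had -0.42 and within the male pair Klf6 had 0.068. Over the arrays left out, the differences ran from -0.63 to 1.05 for Klf2, -0.19 to 0.99 for Klf4 and -0.35 to 0.22 for Klf6. The members' median ran from -0.077 to 0.45 when one array was left out. The count of members with separate arrays then ran from 7 to 10, as fewer arrays overlap less. That count was 6 with the mean of probe sets, median centring, quantile normalization or scaling to the hybridization controls. Among the 8 members above the median level it was 5. Median centring called 1 member by sex (Klf4) and 7 genes of the other lists by genotype (Tsc22d3, Ccr2, Emcn, Lgals3, Hp, F13a1 and Ms4a1); leaving out single arrays called 0 to 3 list genes, Nr4a1, Cxcl12 and F13a1 without Ncstn KO replicate 2. By sex, median centring also called Fosb, Ltf and Camp of the other lists. The cause of these calls was not tested. Over all 18193 genes, 62 passed after median centring, 3 after quantile normalization, 2 among genes above the median level, 23 without Ncstn KO replicate 1 and 27 without Ncstn KO replicate 2. The replicate block (pairing by replicate number) called 0 members and 0 genes, and so did the crossed pairing, which is also the fit with sex; the numbers do not pair the mice. The crossed pairing and the values within each sex were chosen after seeing the data. Signal over background is not known, so the dim probe sets carry an unknown error.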
